A study of Homo sapiens with 24 samples.

Results

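DNA replication and S phase genes were followed through 24 polyadenylated RNA libraries of A549, an established human lung adenocarcinoma cell line. The set holds 50 genes taken by name, of 35579 genes with matched transcripts, and every one of the 50 had a mean of at least 1 TPM in both deposited tables. TPM counts transcripts per 1000000, a share of a library's transcripts corrected for transcript length, and it was summed over the transcripts of each gene. By role the genes fall into origin licensing (11), helicase activation (9), polymerases and primase (9), clamp, loader, single-strand binding and strand joining (11), nucleotide supply (4) and S phase regulators (6).

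The study asked what the kinase TAOK2 does in the nucleus, and it used 2 experiments on cells whose genotype is labelled WT. In the whole-cell experiment, there were 4 treatments: pooled siRNAs against TAOK2 or pooled control siRNAs, at 30 nM, and compound 2 or its solvent DMSO. Each has 3 libraries, one in each of the labelled batches A, B and C. Compound 2 is known here by its code name and is labelled as an inhibitor of TAOK2 kinase; no dose and no exposure time are stated. The fractionation experiment separated RNA of TAOK2 siRNA and of control siRNA cells into nuclear and cytoplasmic fractions beside unfractionated (total) RNA, and each combination has 2 libraries, of batches 1 and 2. The titles of the whole-cell libraries carry the word mock, whose meaning is not given. No label says that the replicates were separate cultures, so p-values measure the spread between these libraries, which may be technical.

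Before a cell divides it copies its genome once, from many origins. In G1 the origin recognition complex, with CDC6 and CDT1, loads the MCM helicase onto DNA, and geminin (GMNN) later blocks reloading. At the start of S phase the kinase CDC7-DBF4 and cyclin E with its kinase bring CDC45 and the GINS complex to MCM, which makes the working helicase, and polymerases then copy the strands on the sliding clamp PCNA. Most of these genes are targets of E2F transcription factors, and their RNA is high from late G1 through S phase and low in resting cells. In bulk RNA, fewer cells in S phase and less of this RNA per cell cannot be told apart.

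TAOK2 itself had 10.6, 12.5 and 8.56 TPM with TAOK2 siRNA in batches A, B and C, against 40.3, 38.2 and 34.3 TPM with control siRNA. Its log2 change was -1.75 ± 0.15 (moderated SE; adjusted p = 2.32e-05, limma). In total RNA it had 3.67 and 2.99 TPM with TAOK2 siRNA in batches 1 and 2, against 9.70 and 5.01 TPM with control siRNA, lower in both batches but not past the adjusted threshold of 0.05 (log2 change -0.89 ± 0.47, adjusted p = 0.88; 0.0522 with batch as a block). Replicates correlated across genes at r = 0.984 to 0.997 in whole cells and 0.928 to 0.970 in the fractionation experiment. TPM keeps no read totals, so the depth of each library is unknown beyond the stated minimum of 100000000 reads. The keratins KRT7, KRT8 and KRT18 had 1667 to 3558 TPM in whole cells, and the lung surfactant gene SFTPB had 0.143 to 0.586 TPM. The epithelial markers EPCAM and CDH1 were low there, at 3.72 to 12.2 and 4.26 to 25.7 TPM. In the fractionation experiment EPCAM had 25.7 to 112.7 TPM and CDH1 52.3 to 82.2 TPM. KRT7, KRT8 and KRT18 had 426.7 to 1354, 869.9 to 2759 and 943.4 to 2057 TPM in that experiment, and SFTPB had 0.0634 to 1.03 TPM. The summed level of the 6 epithelial markers in whole cells was 8156 to 9025 TPM with TAOK2 siRNA, against 6249 to 6487 TPM with control siRNA. The 4 leukocyte markers together reached 2.61 TPM in whole cells, with CD3E at 0 in every library; in total RNA they summed to 22.2 to 54.6 TPM with TAOK2 siRNA, against 17.8 to 32.7 TPM with control siRNA, nearly all of it LYZ. What part these levels play in the results was not tested.

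In whole cells with control siRNA the members ran over a wide range of levels. PCNA, the sliding clamp, was highest at 390.9 ± 8.79 TPM (SD, n = 3), followed by the helicase subunit MCM7 at 363.8 ± 9.03 TPM, thymidine kinase TK1 at 286.6 ± 25.1 TPM and the polymerase delta subunit POLD2 at 202.7 ± 12.3 TPM. The libraries of these 4 genes did not overlap with those of the next in order. The lowest were the origin-firing kinase CDC7 at 11.4 ± 0.409 TPM and cyclin E2 (CCNE2) at 4.30 ± 0.351 TPM. All 50 members together made up 3505 to 3716 TPM of each control siRNA library.

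The promoters of the genes that the results turn on are shown next, because GINS1, GINS2, GINS3, MCM2, PCNA and CCNE1 share a pathway but moved apart in these data. RefSeq promoter windows on GRCh38.p14, 250 bases before to 50 bases after a gene's start, were found for 43 of the 50 members (56 windows). Each line gives the stretch from 110 bases before to 15 bases after the start, on the gene's own strand. Capitals mark letters that match one of the E2F forms TTTCCCGC, TTTCGCGC, TTTGCCGC or TTTGGCGC on either strand.
GINS1, chr20:25407563-25407687, plus strand: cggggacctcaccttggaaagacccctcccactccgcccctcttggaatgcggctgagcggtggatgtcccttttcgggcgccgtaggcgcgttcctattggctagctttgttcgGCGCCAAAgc
GINS2, chr16:85688940-85689064, minus strand: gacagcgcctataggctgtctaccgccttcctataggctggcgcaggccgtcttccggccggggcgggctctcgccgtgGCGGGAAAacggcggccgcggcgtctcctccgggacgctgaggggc
GINS3, chr16:58392361-58392485, plus strand: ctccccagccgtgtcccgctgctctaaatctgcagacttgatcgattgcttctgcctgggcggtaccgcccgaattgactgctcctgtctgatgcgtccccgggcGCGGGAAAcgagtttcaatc
MCM2, chr3:127598301-127598425, plus strand: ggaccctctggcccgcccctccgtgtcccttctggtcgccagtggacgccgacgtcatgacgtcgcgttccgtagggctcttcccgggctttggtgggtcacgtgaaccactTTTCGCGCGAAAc
PCNA, chr20:5126608-5126732, minus strand: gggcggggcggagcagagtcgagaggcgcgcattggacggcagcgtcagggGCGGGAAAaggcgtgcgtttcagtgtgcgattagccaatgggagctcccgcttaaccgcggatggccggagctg
CCNE1, chr19:29811881-29812005, plus strand: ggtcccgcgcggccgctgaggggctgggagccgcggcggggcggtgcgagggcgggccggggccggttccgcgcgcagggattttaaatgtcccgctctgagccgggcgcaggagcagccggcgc
The E2F letters lay at bases 6 to 13 after the start in GINS1, from -31 to -24 in GINS2 and from -59 to -52 in PCNA. In MCM2 a pair of overlapping matches, one per strand, ran from base 3 to 14, and in GINS3 the match crossed the start. The CCNE1 stretch held none of these letters. Over all member windows, 23 of 56 (41.1%) had at least one match, in 22 genes, against 3.31% of 35116 RefSeq windows of the same length. The letters CCAAT, on either strand, were in 55.4% of member windows and in 34.6% of all windows. Members with and without the E2F letters had median log2 changes of -0.26 and -0.22 for TAOK2 siRNA in whole cells, -0.26 and -0.30 for compound 2, and 0.60 and 0.42 for TAOK2 siRNA in total RNA, and these were not tested against each other. A match describes letters, not a bound factor.

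TAOK2 siRNA was set against control siRNA in whole cells to ask what loss of TAOK2 does to RNA levels. Of the 50 members, 20 fell and 1 rose at an adjusted p under 0.05 (limma on log2(TPM + 1), Benjamini-Hochberg over 13106 genes), and 43 had a negative log2 change. Across all genes tested, 22.2% passed, 14.4% lower and 7.78% higher. The median log2 change was -0.23 over the members and -0.05 over all genes. All 3 TAOK2 siRNA libraries lay below all 3 control siRNA libraries for 32 members, as for 29.7% of all genes, and above them for 2 (GINS1 and CCNE2), as for 18.0% of all genes. The members were chosen with earlier results of these data known, so these counts are a description.

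**Figure D1:**
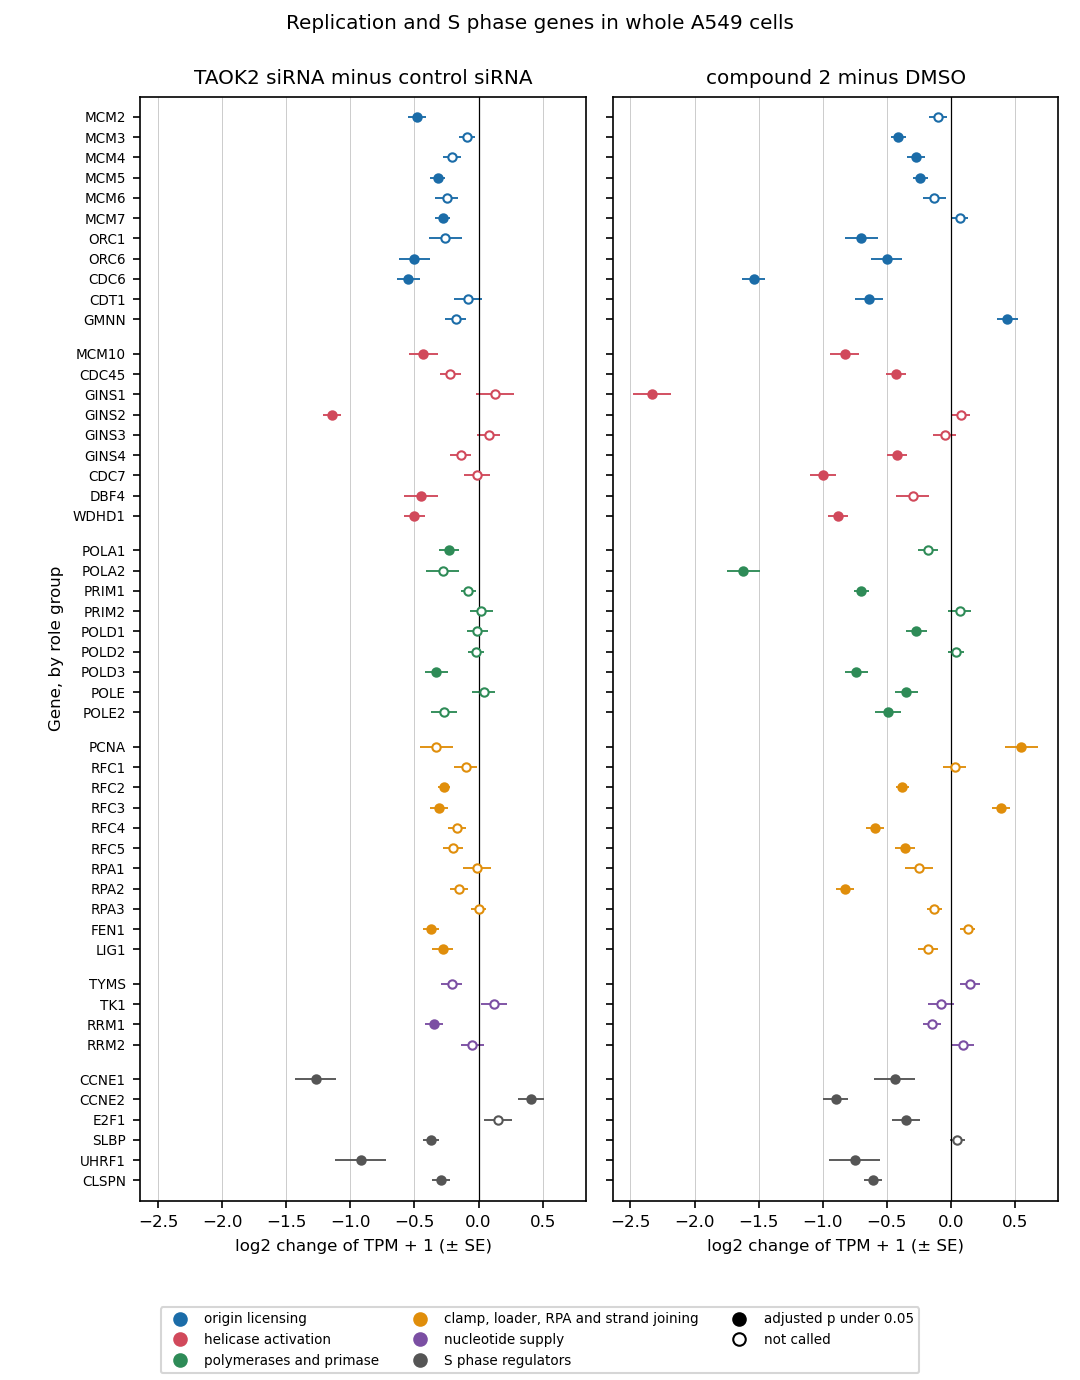
Log2 change of each of the 50 genes in whole cells, TAOK2 siRNA minus control siRNA and compound 2 minus DMSO, in 2 panels, with moderated standard errors (n = 3 libraries per group). Filled points passed an adjusted p of 0.05 (limma): 20 lower and 1 higher with TAOK2 siRNA, 28 lower and 3 higher with compound 2.

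Of the 11 licensing genes, 5 fell and none rose: MCM2, MCM5, MCM7, ORC6 and CDC6. CDC6, the loader that brings MCM to origins, had 38.4, 36.5 and 42.4 TPM with TAOK2 siRNA, against 58.7, 58.0 and 55.9 TPM with control siRNA (log2 change -0.55 ± 0.09, adjusted p = 0.00183, limma). MCM2, a subunit of the helicase ring, had 78.3, 69.5 and 75.4 TPM with TAOK2 siRNA, against 112.5, 103.2 and 96.7 TPM with control siRNA (-0.48 ± 0.07, adjusted p = 0.00048, limma). In both genes every TAOK2 siRNA library was below every control library. ORC6, the smallest subunit of the origin recognition complex, had 40.5, 37.7 and 37.7 TPM with TAOK2 siRNA, against 54.2, 54.6 and 56.3 TPM with control siRNA (-0.50 ± 0.12, adjusted p = 0.0131, limma; 0.0508 without the TAOK2 siRNA library of batch B). Summed over MCM2 to MCM7, the ring had 757.2, 712.8 and 742.3 TPM with TAOK2 siRNA, against 937.1, 892.2 and 853.5 TPM with control siRNA, groups that did not overlap. MCM3 had the smallest change of the ring at -0.09 ± 0.06 (adjusted p = 0.358, limma), and CDT1, the other MCM loader, had -0.08 ± 0.11 (adjusted p = 0.636). MCM6 missed the threshold (adjusted p = 0.0729) and passed with batch as a block (0.0261). With the block 25 members fell and 1 rose, where 17.5% and 10.4% of all genes did. Whole-cell calls gained with the block in comparisons with control siRNA rest on a batch label. For control siRNA of batch B, the libraries' deviations did not bear that label out.

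The genes that activate the helicase did not move together. GINS2 had 14.9, 14.7 and 17.0 TPM with TAOK2 siRNA, against 35.7, 36.4 and 34.3 TPM with control siRNA. It fell in every batch, to less than the lowest control library by more than the spread within either group (log2 change -1.14 ± 0.07, adjusted p = 1.81e-06, limma). The other GINS subunits did not pass: GINS1 had 27.9, 27.5 and 30.5 TPM with TAOK2 siRNA, against 25.5, 27.4 and 25.2 TPM with control siRNA (0.13 ± 0.15), GINS3 had 0.08 ± 0.09 and GINS4 -0.14 ± 0.08. WDHD1, which ties polymerase alpha to the helicase, had 14.7, 14.9 and 15.3 TPM with TAOK2 siRNA, against 21.6, 20.5 and 22.4 TPM with control siRNA (-0.50 ± 0.08, adjusted p = 0.00135, limma). DBF4, the activating subunit of CDC7, had 27.2, 29.8 and 29.4 TPM with TAOK2 siRNA, against 38.9, 40.9 and 39.5 TPM with control siRNA (-0.45 ± 0.13, adjusted p = 0.0237, limma). The groups did not overlap for either gene, but the DBF4 call was lost whichever of the 6 libraries was left out (adjusted p 0.0563 to 0.0771), without the filter on low values (0.0623) and with protein-coding transcripts alone (0.122). MCM10, a fork factor that also helps to start the helicase, fell by 0.43 ± 0.11 on the log2 scale (adjusted p = 0.0142). CDC45 missed the threshold (adjusted p = 0.0589) and passed with the block (0.0356), and CDC7 had -0.01 ± 0.10.

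Of the 9 polymerase and primase genes, POLD3 and POLA1 fell and none rose. POLD3, an accessory subunit of polymerase delta, had 25.4, 26.1 and 25.4 TPM with TAOK2 siRNA, against 32.9, 34.2 and 30.1 TPM with control siRNA (log2 change -0.33 ± 0.09, adjusted p = 0.0248, limma). Its groups did not overlap, and its call was lost without the filter on low values (0.0564) and without any 1 of 5 libraries, the exception being control siRNA of batch C, with adjusted p up to 0.0989. POLA1, the catalytic subunit of polymerase alpha, was near the threshold (-0.23 ± 0.08, adjusted p = 0.0483, limma) and did not pass without control siRNA of batch A, B or C or without TAOK2 siRNA of batch A or B. The polymerase epsilon catalytic subunit POLE had 0.04 ± 0.09 and the primase subunits PRIM1 and PRIM2 had -0.08 ± 0.06 and 0.02 ± 0.09.

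Among the 11 genes of the clamp, its loader, single-strand binding and strand joining, 4 fell: RFC2, RFC3, FEN1 and LIG1. FEN1, the nuclease that trims Okazaki fragments, had 59.4, 57.1 and 57.6 TPM with TAOK2 siRNA, against 79.1, 75.8 and 71.9 TPM with control siRNA, with no overlap (log2 change -0.37 ± 0.06, adjusted p = 0.00164, limma). PCNA had 317.3, 298.8 and 314.2 TPM with TAOK2 siRNA, against 389.0, 400.4 and 383.2 TPM with control siRNA. Its groups did not overlap either, yet it missed the threshold at -0.33 ± 0.13 (adjusted p = 0.0888, limma) and passed with the block (0.0306). The loader subunit RFC5 likewise missed it (adjusted p = 0.0741) and passed with the block (0.0385). The 3 RPA genes, which coat single-stranded DNA, had changes of -0.15 to 0.00 and none passed.

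Of the 4 nucleotide supply genes, RRM1, the large subunit of ribonucleotide reductase, fell. It had 76.0, 77.2 and 76.8 TPM with TAOK2 siRNA, against 94.9, 100.2 and 99.7 TPM with control siRNA, with no overlap (log2 change -0.35 ± 0.07, adjusted p = 0.00534, limma). RRM2, the small subunit whose level follows S phase, had 66.2, 58.4 and 52.4 TPM with TAOK2 siRNA, against 60.4, 56.7 and 65.7 TPM with control siRNA, and the groups overlapped (-0.05 ± 0.09; with protein-coding transcripts alone 0.57, adjusted p = 0.0471). Thymidine kinase TK1 had 0.12 ± 0.10 and did not pass; thymidylate synthase TYMS also missed the threshold (adjusted p = 0.0791) and passed with the block (0.0353).

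The S phase regulators held both the largest fall and the single rise. CCNE1, cyclin E1, had 5.99, 7.58 and 7.34 TPM with TAOK2 siRNA, against 17.7, 16.8 and 20.1 TPM with control siRNA (log2 change -1.27 ± 0.16, adjusted p = 0.000234, limma). Its highest TAOK2 siRNA library was less than the lowest control library by a wide margin. CCNE2, the other cyclin E, had 5.43, 6.64 and 6.17 TPM with TAOK2 siRNA, against 4.44, 4.56 and 3.90 TPM with control siRNA (0.41 ± 0.10, adjusted p = 0.0112, limma; 0.055 without the TAOK2 siRNA library of batch B). So the 2 cyclin E genes moved in opposite directions, with no overlap between groups in either. UHRF1, which carries DNA methylation across the fork, had 16.4, 14.2 and 15.3 TPM with TAOK2 siRNA, against 29, 31.8 and 28.8 TPM with control siRNA (-0.92 ± 0.20, adjusted p = 0.0068, limma). SLBP, the histone stem-loop binding protein, fell by 0.37 ± 0.06 on the log2 scale (adjusted p = 0.000992) and CLSPN, the checkpoint adaptor claspin, by 0.29 ± 0.07 (adjusted p = 0.0139). E2F1, the transcription factor of the pathway, had 0.15 ± 0.11 and did not pass. Without the TAOK2 siRNA library of batch B, 13 members were called instead of 21, with CCNE2, CLSPN, DBF4, LIG1, MCM10, ORC6, POLA1 and POLD3 lost. On median-centred values LIG1, MCM7, POLA1 and RFC2 were not called and the other 17 were. Of all genes 20.5% were called on those values, against 22.2% as deposited. With the fit limited to the TAOK2 siRNA and control siRNA libraries, 31 members were called, the same 21 and CDC45, GMNN, MCM4, MCM6, ORC1, PCNA, POLA2, POLE2, RFC5 and TYMS. The share of all genes called is not given for the fits with 13 and 31 members, so those counts cannot be set against a background.

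**Figure D2:**
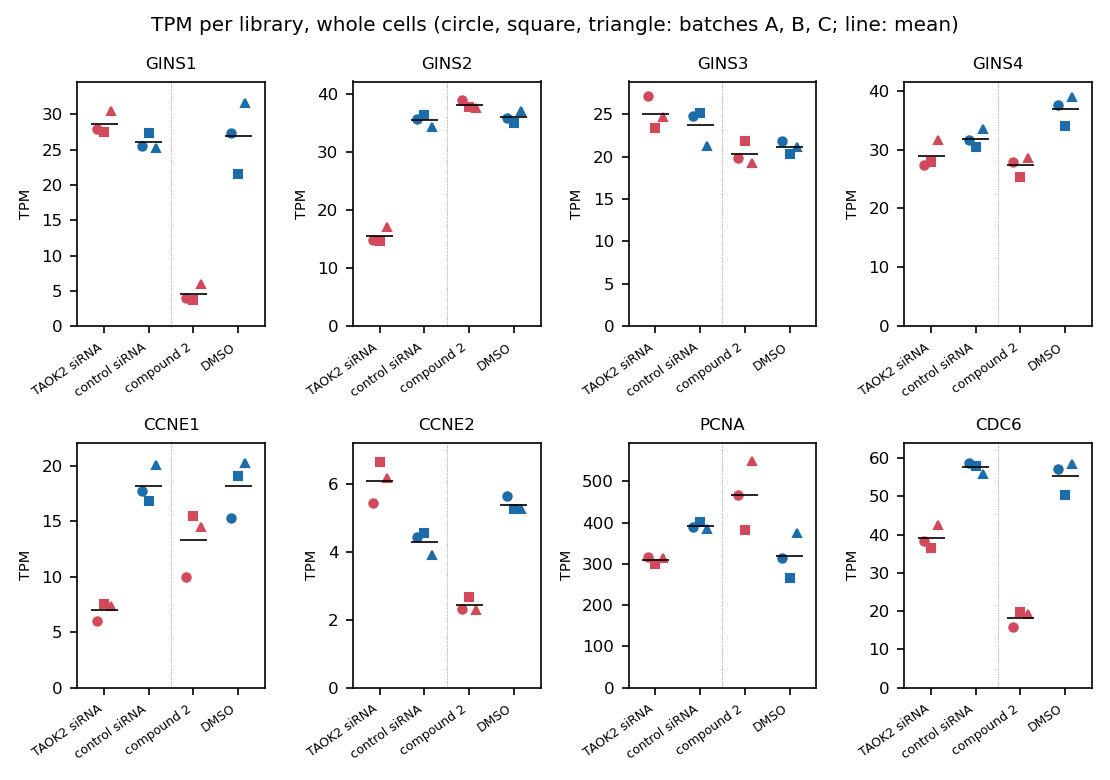
TPM in each whole-cell library of the GINS genes, CCNE1, CCNE2, PCNA and CDC6, with TAOK2 siRNA, control siRNA, compound 2 and DMSO (3 libraries per group; bars are means). GINS2 and CCNE1 were low with TAOK2 siRNA, and GINS1 and CDC6 were low with compound 2, while PCNA was high with compound 2.

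Compound 2 was set against DMSO to ask what inhibiting the kinase does. As deposited, 28 members fell and 3 rose, where 63.7% of all genes passed (51.8% lower and 12% higher). The median log2 change was -0.32 over the members and -0.31 over all genes. Setting each library's median gene to the same level moved the median of all genes to 0.195; on those values 10 members were lower and 23 higher, where 24.3% and 43.2% of all genes were. The genes that fell on both scales were CDC6, MCM10, GINS1, CDC7, WDHD1, POLA2, PRIM1, POLD3, RPA2 and CCNE2, and those that rose on both were GMNN, PCNA and RFC3.

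The deepest falls were in GINS1 and POLA2. GINS1 had 3.93, 3.73 and 6.02 TPM with compound 2, against 27.4, 21.6 and 31.6 TPM with DMSO (log2 change -2.33 ± 0.15, adjusted p = 6.74e-08, limma; -1.82 median-centred). POLA2, the regulatory subunit of polymerase alpha, had 4.30, 4.29 and 5.77 TPM with compound 2, against 15.4, 14.8 and 20.4 TPM with DMSO (-1.62 ± 0.13, adjusted p = 4.05e-07, limma; -1.11 median-centred). For both genes the highest compound 2 library was under the lowest DMSO library, and in both groups batch C was the highest. GINS2, which fell with TAOK2 siRNA, had 38.9, 37.8 and 37.6 TPM with compound 2, against 35.8, 35 and 37.0 TPM with DMSO (0.08 ± 0.07, adjusted p = 0.322, limma). On median-centred values GINS2 was higher with compound 2, past the threshold. The other polymerase alpha subunit, POLA1, had -0.18 ± 0.08 (limma adjusted p = 0.058, and 0.0465 with the block). The primase subunits PRIM1 and PRIM2 had -0.70 ± 0.06 and 0.07 ± 0.09. On median-centred values POLA1 and PRIM2 were higher and PRIM1 was lower, each past the threshold.

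Of the licensing genes, 7 fell and GMNN rose as deposited; on median-centred values 1 was lower (CDC6) and 6 higher (GMNN and 5 MCM genes). MCM4 and MCM5 were among both the falls and these rises: their log2 changes were -0.27 ± 0.07 and -0.24 ± 0.06 as deposited, and 0.24 ± 0.08 and 0.27 ± 0.07 on median-centred values, each past the threshold. CDC6 had 15.8, 19.9 and 19.2 TPM with compound 2, against 57.1, 50.3 and 58.4 TPM with DMSO (log2 change -1.54 ± 0.09, adjusted p = 3.15e-08, limma; -1.03 median-centred). GMNN had 49.8, 48.8 and 56.6 TPM with compound 2, against 37.6, 35 and 41.1 TPM with DMSO (0.44 ± 0.08, adjusted p = 0.000343, limma). Neither gene's groups overlapped: the loader of MCM was low and the inhibitor of loading was high. The MCM2 to MCM7 sum was 720.6, 743.0 and 759.2 TPM with compound 2, against 757.1, 792.4 and 831.0 TPM with DMSO, and the groups overlapped.

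Further along the pathway, 6 helicase activation genes and 6 polymerase and primase genes fell as deposited, and 4 and 3 of them were also lower on median-centred values. On those values 2 helicase activation genes and 4 polymerase and primase genes were higher, including POLD1, the catalytic subunit of polymerase delta, which had -0.27 ± 0.08 as deposited and 0.24 ± 0.07 on median-centred values, past the threshold on both scales. CDC7 had 4.43, 3.49 and 4.39 TPM with compound 2, against 9.52, 8.26 and 9.81 TPM with DMSO (log2 change -1.0 ± 0.10, adjusted p = 2.1e-06, limma). WDHD1 had 11, 11.6 and 11.7 TPM with compound 2, against 20.3, 21.0 and 24.4 TPM with DMSO (-0.88 ± 0.08, adjusted p = 1.07e-06, limma). Both stood clear of their DMSO libraries in all batches. MCM10 had 14.1, 19.1 and 15.7 TPM with compound 2, against 30.2, 26.0 and 33.0 TPM with DMSO (-0.83 ± 0.11, adjusted p = 2.25e-05, limma). RPA2, the middle subunit of replication protein A, had 23.4, 20.9 and 25.3 TPM with compound 2, against 42.6, 40.0 and 43.1 TPM with DMSO (-0.83 ± 0.07, adjusted p = 6.54e-07, limma). RPA1 and RPA3, its partner subunits, had -0.25 ± 0.11 and -0.13 ± 0.06 and did not pass as deposited. On median-centred values RPA3 was higher, past the threshold, and RPA1 was not called.

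PCNA and its loader subunit RFC3 were among the 3 rises. PCNA had 466.1, 381.3 and 550.1 TPM with compound 2, against 315.0, 265.0 and 375.0 TPM with DMSO (log2 change 0.55 ± 0.13, adjusted p = 0.0028, limma). RFC3 had 80.3, 84.7 and 82.3 TPM with compound 2, against 64.7, 61.5 and 61.2 TPM with DMSO (0.39 ± 0.07, adjusted p = 0.000325, limma). In PCNA the lowest compound 2 library, of batch B, lay just above the highest DMSO library, of batch C, and within each batch compound 2 was higher. RFC2, RFC4 and RFC5 of the same loader fell as deposited (-0.38 ± 0.05, -0.59 ± 0.07 and -0.36 ± 0.08), and had 0.13, -0.08 and 0.15 on median-centred values, and none of these passed. RFC1 had 0.03 ± 0.09 as deposited and was higher, past the threshold, on median-centred values.

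None of the 4 nucleotide supply genes passed as deposited, and all 4 were higher on median-centred values; 34 members in all had an unadjusted p under 0.05 in this comparison, where 66.8% of all genes did, a like share. RRM1 had 86.3, 87.5 and 103.3 TPM with compound 2, against 100.7, 97.7 and 109.8 TPM with DMSO, groups that overlapped (log2 change -0.15 ± 0.07, adjusted p = 0.0814, limma; 0.0446 with the block; 0.35 median-centred, adjusted p = 0.00582). Of the regulators, CCNE2 had 2.31, 2.66 and 2.30 TPM with compound 2, against 5.64, 5.26 and 5.27 TPM with DMSO (-0.90 ± 0.10, adjusted p = 5.54e-06, limma). CCNE2, the member that rose with TAOK2 siRNA, thus fell with compound 2. CCNE1 had 9.97, 15.5 and 14.5 TPM with compound 2, against 15.3, 19.1 and 20.3 TPM with DMSO, which overlapped (-0.44 ± 0.16, adjusted p = 0.0269, limma). CCNE1 was not called without compound 2 of batch A or without DMSO of batch B or C. Nor was it called without the filter on low values, with only the groups compared or on median-centred values (0.07). UHRF1 had 14.3, 17.5 and 20.2 TPM with compound 2, against 22.4, 26.4 and 43.8 TPM with DMSO, where the DMSO library of batch C stood apart from the others. DBF4 missed the threshold (adjusted p = 0.0537) and passed with the block (0.0375), as it and POLA1 also did without compound 2 of batch B.

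The difference between both effects was tested in the same fit. In 26 members the compound 2 change and the TAOK2 siRNA change differed, 16 of them lower and 10 higher for compound 2, where 54.7% of all genes did (42.4% lower and 12.3% higher). On median-centred values 5 were lower and 26 higher, against 21.1% and 35.7% of all genes. The 5 that were lower for compound 2 on both scales were CDC6, GINS1, CDC7, POLA2 and CCNE2. The largest differences were -2.46 ± 0.22 in GINS1 (adjusted p = 2.22e-06, limma), -1.34 ± 0.19 in POLA2, -1.31 ± 0.14 in CCNE2, 1.23 ± 0.10 in GINS2 (adjusted p = 1.08e-06, limma) and -1.0 ± 0.13 in CDC6. Within the GINS complex, GINS1 had the largest fall with compound 2 and GINS2 was the subunit that fell with TAOK2 siRNA, each by more than the spread of the libraries. GINS4 also fell with compound 2 as deposited (-0.42 ± 0.08), but was not called on median-centred values (0.09 ± 0.10). GINS3 passed in neither comparison as deposited, and with compound 2 it was higher on median-centred values (0.46 ± 0.08). GINS2 too was higher with compound 2 on median-centred values. The difference between both effects missed the threshold in GINS4 (adjusted p = 0.057) and passed with the block (0.0196). As deposited, the 10 members that fell in both comparisons were MCM5, ORC6, CDC6, MCM10, WDHD1, POLD3, RFC2, CCNE1, UHRF1 and CLSPN, and no member rose in both, where 7.94% of all genes fell in both and 1.0% rose in both. On median-centred values 4 members were lower in both, CDC6, MCM10, WDHD1 and POLD3, where 3.15% of all genes were. Both comparisons come from the same 3 batches but share no library.

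Control siRNA was also set against DMSO. These groups differ in siRNA transfection and may differ in solvent, and the parts of transfection, siRNA and solvent cannot be told apart. In this comparison 4 members passed, 3 higher and 1 lower, where 6.43% of all genes did (4.32% higher and 2.11% lower). RRM2 had 60.4, 56.7 and 65.7 TPM with control siRNA, against 84.3, 82.2 and 88.3 TPM with DMSO, clear of each other (log2 change -0.47 ± 0.09, adjusted p = 0.0128, limma). MCM3 had 91.7, 92.4 and 82.2 TPM with control siRNA, against 70.3, 72.1 and 79.1 TPM with DMSO (0.26 ± 0.06, adjusted p = 0.0342, limma), and MCM5 and RPA2 were higher by 0.24 and 0.28. On median-centred values RRM2 alone passed, where 5.91% of all genes did, and with batch as a block 7 passed, where 11.8% did, the additions being MCM4, ORC1 and RFC2. No member passed without control siRNA of batch A or of batch B, and 1 passed without DMSO of batch A or of batch B. CCNE1, GINS1 and GINS2, which had the largest changes in the other comparisons, had log2 changes of 0.01 ± 0.16, -0.03 ± 0.15 and -0.02 ± 0.07 here, and their groups overlapped.

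TAOK2 siRNA was also set against control siRNA in the fractionation experiment, where 2 libraries per group limit the test. At an adjusted p under 0.05 (limma over 13751 genes), 0 members passed in total, nuclear or cytoplasmic RNA, where 0%, 0.0145% and 0% of all genes did. At an unadjusted p under 0.05, 18, 16 and 13 members passed, all higher with TAOK2 siRNA, where 6.67%, 9.66% and 6.78% of all genes passed in either direction. The log2 change was positive in 48, 47 and 44 members, and its median was 0.52, 0.47 and 0.36, against -0.01, -0.05 and -0.06 over all genes. Both TAOK2 siRNA libraries were above both control libraries for 32, 35 and 23 members, as for 16.0%, 15.8% and 9.47% of all genes. The fractions share their batches and were compared as deposited, so their likeness is not independent repetition.

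Libraries of a batch moved together in this experiment, and the labels give the batch, so the fit with batch as a block is given beside these values. With it, 6 members were higher in total RNA, 10 in nuclear RNA and 9 in cytoplasmic RNA, and 0 were lower. Of all genes, 1.66%, 2.77% and 1.49% were higher and 0.807%, 3.13% and 1.45% were lower in total, nuclear and cytoplasmic RNA. The 5 members higher in all 3 kinds of RNA were ORC1, CDC6, CDC45, FEN1 and RRM2. These counts rest on both batches: leaving out 1 library of a comparison left 0 in 3 of 4 cases for total RNA and 3 of 4 for nuclear RNA, with 7 without control total RNA of batch 1 and 1 without control nuclear RNA of batch 1. In cytoplasmic RNA it left 0 without either control library, 5 without TAOK2 siRNA of batch 1 and 10 without TAOK2 siRNA of batch 2.

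RRM2 showed the largest of these differences in total RNA, with 44.9 and 57.7 TPM with TAOK2 siRNA in batches 1 and 2, against 18.5 and 20.0 TPM with control siRNA. Its log2 change was 1.36 ± 0.28 (limma adjusted p = 0.2; 0.00517 with the block). CDC6 had 31.7 and 39.3 TPM with TAOK2 siRNA, against 15 and 17.7 TPM with control siRNA (1.07 ± 0.27, limma adjusted p = 0.334; 0.00994 with the block). Neither gene's groups overlapped. ORC1, the ATPase subunit of the origin recognition complex, had 4.96 and 6.16 TPM with TAOK2 siRNA, against 2.21 and 2.33 TPM with control siRNA (1.00 ± 0.20, limma adjusted p = 0.196; 0.0144 with the block). FEN1 had 36.4 and 37.9 TPM with TAOK2 siRNA, against 21.0 and 17.5 TPM with control siRNA (0.92 ± 0.14, limma adjusted p = 0.135; 0.0101 with the block). CDC45, the helicase cofactor, had 11.8 and 22.1 TPM with TAOK2 siRNA, against 6.12 and 9.48 TPM with control siRNA, and each batch was higher with TAOK2 siRNA by more than the step between batches in the control group. GINS1 had 19.3 and 23.2 TPM with TAOK2 siRNA, against 10.3 and 11.2 TPM with control siRNA (0.92 ± 0.25, limma adjusted p = 0.374; 0.0261 with the block).

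Of the members' log2 changes in nuclear RNA the largest was in TK1, which had 32.3 and 21.7 TPM in nuclear RNA with TAOK2 siRNA, against 9.77 and 4.37 TPM with control siRNA (log2 change 1.85 ± 0.58, limma adjusted p = 0.317; 0.00691 with the block). FEN1 came nearest to the threshold without the block, with 28.0 and 30.2 TPM in nuclear RNA with TAOK2 siRNA, against 13.4 and 12.4 TPM with control siRNA (1.11 ± 0.14, limma adjusted p = 0.0527; 0.00356 with the block), and it passed on median-centred values. Both batches of both genes were higher with TAOK2 siRNA. In cytoplasmic RNA RRM2 had 36.7 and 59.7 TPM with TAOK2 siRNA, against 15.3 and 22.1 TPM with control siRNA (1.30 ± 0.28, limma adjusted p = 0.206; 0.0066 with the block). GINS2 in cytoplasmic RNA had 8.39 and 8.62 TPM with TAOK2 siRNA, against 4.25 and 4.88 TPM with control siRNA (0.77 ± 0.21, limma adjusted p = 0.378; 0.031 with the block). CCNE1 did not share the direction: in total RNA it had 10.1 and 12.2 TPM with TAOK2 siRNA, against 12.1 and 12.3 TPM with control siRNA (-0.12 ± 0.18). In 35 members TAOK2 siRNA was higher in both batches of all 3 kinds of RNA, as in 10.5% of all genes.

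**Figure D3:**
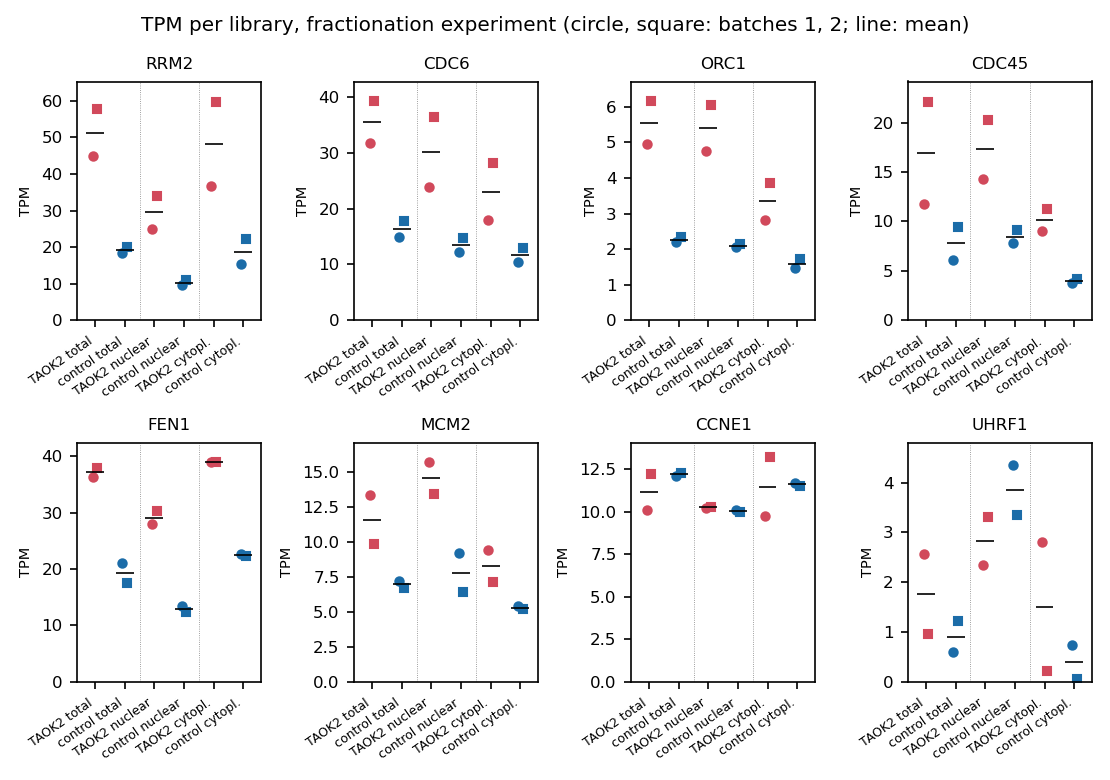
TPM of 8 genes in each fractionation library, TAOK2 siRNA beside control siRNA in total, nuclear and cytoplasmic RNA (2 libraries per group, batches 1 and 2). RRM2, CDC6, ORC1, CDC45 and FEN1 lie higher with TAOK2 siRNA in every kind of RNA, and CCNE1 does not.

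The siRNA comparison therefore had opposite signs in the 2 experiments for many members. In 30 of the 50, TAOK2 siRNA was lower in 3 of 3 whole-cell batches and higher in 2 of 2 total RNA batches, as were 1098 of 12429 genes tested in both tables (8.83%). Among them were 16 of the 20 members that fell in whole cells. CDC6 had -0.55 ± 0.09 in whole cells and 1.07 ± 0.27 in total RNA, GINS2 had -1.14 ± 0.07 and 0.63 ± 0.21, and MCM2 had -0.48 ± 0.07 and 0.65 ± 0.23. The tables were normalized separately and the difference between experiments was not tested. Member TPM summed to 3217, 3047 and 3126 with TAOK2 siRNA, against 3716, 3642 and 3505 with control siRNA, in whole cells, and to 1760 and 2094 with TAOK2 siRNA, against 1404 and 1551 with control siRNA, in total RNA. Both sums were clear of overlap, in opposite directions. TAOK2 itself was lower with its siRNA in each batch of both experiments. The experiments also differed in the control cells: with control siRNA the members' log2 level in total RNA, less that in whole cells, had a median of -1.37, against -0.31 over all genes. That difference fell with the GC content of the transcripts, with a Spearman's rho, across genes of the same libraries, of -0.62 over the 50 members and -0.56 over 12354 genes. With the same GC content, the TAOK2 siRNA change had a rho of 0.01 over the members and -0.15 over all genes in whole cells, and of 0.07 and -0.20 in total RNA. CDT1 and UHRF1, for example, averaged 0.597 and 0.906 TPM in total RNA with control siRNA.

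**Figure D4:**
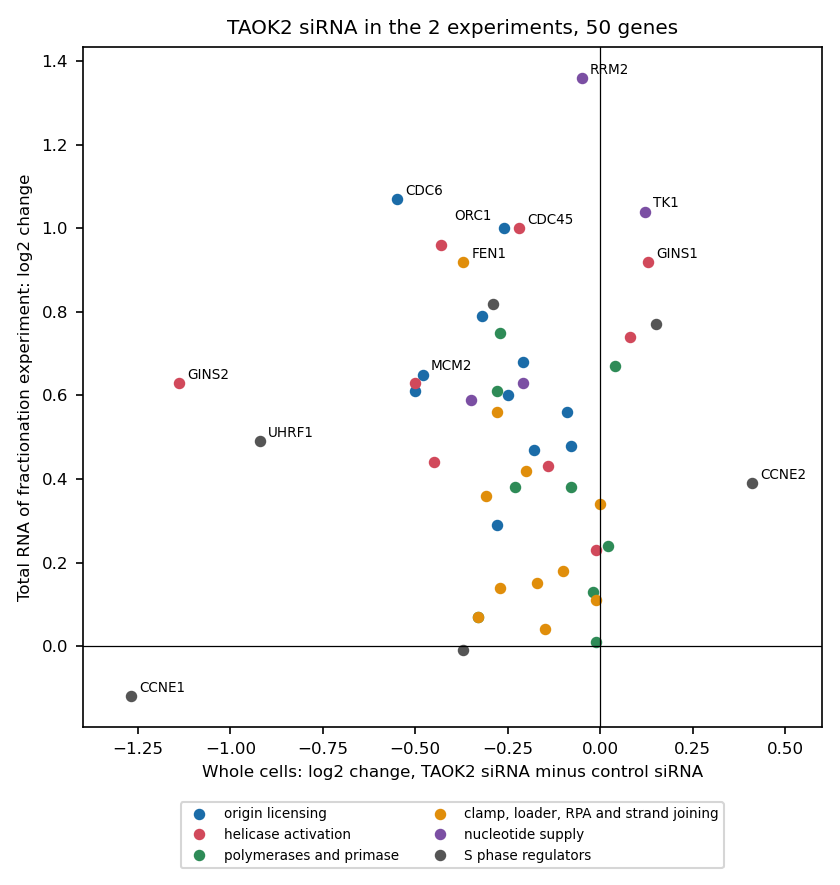
Log2 change with TAOK2 siRNA, minus control siRNA, in whole cells (x axis, 3 libraries per group) and in total RNA of the fractionation experiment (y axis, 2 libraries per group), one point per gene. Most of the 50 points lie to the left of 0 and above 0; CCNE1 lies at -1.27 and -0.12.

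Nuclear and cytoplasmic RNA of control siRNA cells were compared to see where the members' transcripts lay. With TPM summed over all transcripts, 14 members were higher in nuclear RNA and 8 lower, where 48.7% of all genes passed (29.8% higher and 18.9% lower). The median log2 difference, nuclear minus cytoplasmic, was 0.32 over the members and 0.215 over all genes. Adding the batch block, 20 were higher and 14 lower, where 40.5% and 27.7% of all genes were. On median-centred values, which moved the median of all genes to -0.171, 6 were higher and 14 lower, where 20.2% and 29.8% of all genes were. Each fraction is scaled to its own total, so these are shares of a fraction and not amounts per cell.

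The 8 members lower in nuclear RNA were GINS2, PCNA, RFC2, RPA2, RPA3, FEN1, RRM2 and SLBP, and all 8 were also lower on median-centred values and with protein-coding transcripts alone. RPA3, the smallest subunit of replication protein A, had 20.6 and 27.1 TPM in nuclear RNA, against 59.9 and 62.0 TPM in cytoplasmic RNA (log2 difference -1.33 ± 0.21, adjusted p = 0.00106, limma). SLBP had 16.4 and 19.7 TPM in nuclear RNA, against 36.6 and 40.5 TPM in cytoplasmic RNA (-1.06 ± 0.20, adjusted p = 0.00271, limma). Both had no overlap between fractions. GINS2 had 1.30 and 2.10 TPM in nuclear RNA, against 4.25 and 4.88 TPM in cytoplasmic RNA (-1.06 ± 0.21, adjusted p = 0.00305, limma), and RFC2 had 9.46 and 10.2 TPM in nuclear RNA, against 20.3 and 21.9 TPM in cytoplasmic RNA (-1.03 ± 0.16, adjusted p = 0.000954, limma).

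The members higher in nuclear RNA depended on which transcripts were summed. POLE had 26.4 and 15.9 TPM in nuclear RNA, against 4.12 and 1.74 TPM in cytoplasmic RNA (log2 difference 2.52 ± 0.46, adjusted p = 0.00222, limma), and 1.55 with protein-coding transcripts alone. ORC6 had 27.6 and 29.7 TPM in nuclear RNA, against 8.98 and 8.63 TPM in cytoplasmic RNA (1.60 ± 0.18, adjusted p = 0.000184, limma). Its protein-coding transcripts held 2.30% and 6.84% of that TPM in nuclear RNA, against 62.1% and 84.2% in cytoplasmic RNA, and with them alone the difference was -1.73 (adjusted p = 0.0139, limma). POLE2, the second subunit of polymerase epsilon, had 19.6 and 41.0 TPM in nuclear RNA, against 5.40 and 8.01 TPM in cytoplasmic RNA (1.95 ± 0.60, adjusted p = 0.0251, limma), and -0.20 with protein-coding transcripts alone (adjusted p = 0.739). Its call was also lost on median-centred values (0.0674) and without control nuclear RNA of batch 2 or control cytoplasmic RNA of either batch (up to 0.152). UHRF1 had 4.35 and 3.34 TPM in nuclear RNA, against 0.731 and 0.0465 TPM in cytoplasmic RNA (1.84 ± 0.53, adjusted p = 0.0199, limma), a call that was lost without any 1 of 3 libraries, the exception being control cytoplasmic RNA of batch 1 (up to 0.116). With protein-coding transcripts alone, 5 members were higher and 11 lower, where 16.0% and 27.1% of all genes were; MCM3, CDC7, POLE, UHRF1 and CLSPN were higher in both counts. Retained-intron transcripts made up 22.5% and 22.0% of member TPM in nuclear RNA, against 6.69% and 6.11% in cytoplasmic RNA; over all matched genes they made up 9.01% and 9.91%, against 4.03% and 3.69%. Leaving out control nuclear RNA of batch 2, or control cytoplasmic RNA of batch 1 or 2, left 12, 14 and 12 of 22 members called.

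**Figure D5:**
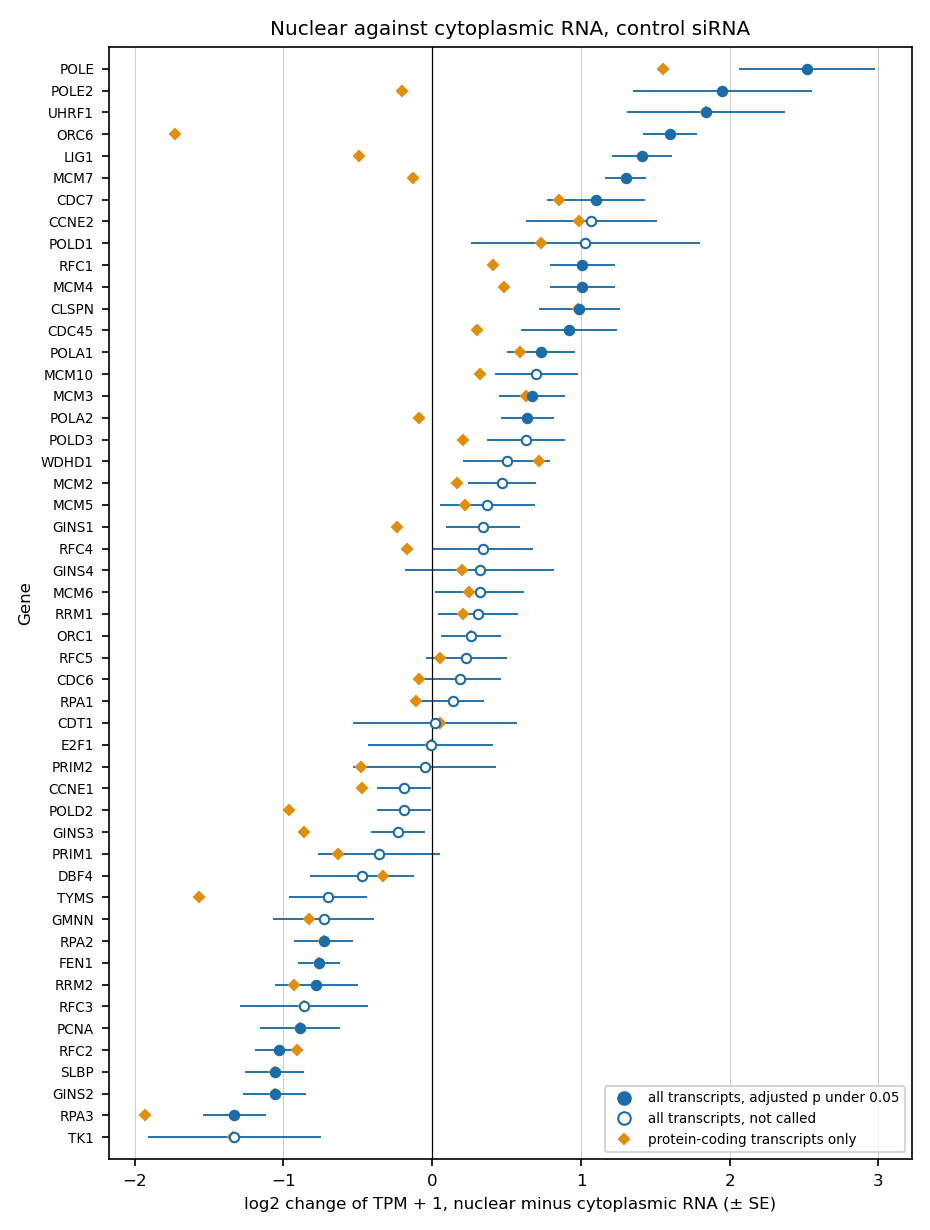
Log2 difference of nuclear minus cytoplasmic RNA in control siRNA cells for each of the 50 genes, with moderated standard errors (2 libraries per fraction); filled points passed an adjusted p of 0.05, and diamonds give the value with protein-coding transcripts alone. ORC6 and POLE2 lie at 1.60 and 1.95 with all transcripts, and their diamonds at -1.73 and -0.20.

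The effect of TAOK2 siRNA on the nuclear to cytoplasmic ratio passed in 0 members and in 0% of all genes (limma), and 0 members had an unadjusted p under 0.05 for it, where 1.34% of all genes did. In TAOK2 siRNA cells retained-intron transcripts made up 17.6% and 17.9% of member TPM in nuclear RNA, against 22.5% and 22.0% with control siRNA; in cytoplasmic RNA they made up 4.51% and 4.45%, against 6.69% and 6.11%. Both pairs did not overlap. Over all matched genes the shares were 7.47% and 8.15% with TAOK2 siRNA, against 9.01% and 9.91% with control siRNA, in nuclear RNA, also lower and without overlap, and 3.80% and 3.63%, against 4.03% and 3.69%, in cytoplasmic RNA. No test was run on these shares.

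Which transcripts carry a gene's TPM was tested in whole cells on the log2 odds of each transcript within its gene, over 187 transcripts of 44 members. With TAOK2 siRNA, 0 of 187 passed, where 0.0810% of 39492 transcripts did, and 19 had an unadjusted p under 0.05, where 10.7% of all transcripts did (limma). The nearest was ORC6-201, the main coding transcript of ORC6, with 51.8%, 50.7% and 56.9% of the gene's TPM with TAOK2 siRNA, against 69.3%, 67.9% and 68.7% with control siRNA (log2 odds change -0.93 ± 0.15, adjusted p = 0.0577, limma). The groups did not overlap, and the coding TPM of ORC6 fell further than its total (-0.87, adjusted p = 0.0018, against -0.50 for all transcripts). With compound 2, 49 of 187 transcripts in 25 genes passed, 21 with a larger and 28 with a smaller share, where 34.8% of all transcripts passed (16.8% larger and 18.0% smaller).

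The transcript changes with compound 2 were largest in 3 polymerase and loader genes. PRIM2-201, a short coding transcript of the large primase subunit, held 32.8%, 31.6% and 31.0% of the gene's TPM with compound 2, against 3.93%, 2.33% and 0.0343% with DMSO (log2 odds change 3.21 ± 0.36, adjusted p = 3.73e-05, limma). The longer PRIM2-207 held 43.0%, 43.1% and 51.7% with compound 2, against 79.9%, 84.4% and 84.8% with DMSO (-2.30 ± 0.25, adjusted p = 2.64e-05, limma). So PRIM2, whose total TPM did not pass as deposited and was higher on median-centred values, exchanged transcripts in every batch. POLD3-209, annotated as a processed transcript with no coding frame, held 36.7%, 34.4% and 33.5% with compound 2, against 3.40%, 5.07% and 4.77% with DMSO (3.17 ± 0.21, adjusted p = 7.81e-07, limma), while the coding POLD3-201 held 10.2%, 19.8% and 17.9% with compound 2, against 47.9%, 48.3% and 52.8% with DMSO (-2.22 ± 0.21, adjusted p = 1.15e-05, limma). RFC1-204, another processed transcript, held 11.9%, 10.7% and 14.5% with compound 2, against 0%, 3.61% and 2.93% with DMSO (2.19 ± 0.47, adjusted p = 0.0034, limma), and the coding TPM of RFC1 was lower by 0.63 on the log2 scale where its total was at 0.03. By annotation, 5 of 15 processed transcripts of the members gained share and none lost it, where 25.2% of all processed transcripts gained and 14.9% lost it. Of 32 retained-intron transcripts 2 gained and 10 lost share, where 18.3% and 23.9% of all such transcripts did. Of 129 protein-coding transcripts 14 gained and 16 lost share (15.1% and 17.8% over all genes), and of 11 annotated for nonsense-mediated decay none gained and 2 lost it (15.5% and 13.1%). Nothing particular to the members was tested in these counts. In GINS1 the coding GINS1-201 held 81.0%, 70.5% and 74.6% with compound 2, against 89.2%, 91.0% and 91.2% with DMSO, and its mean was 3.44 TPM with compound 2 and 24.3 TPM with DMSO.

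Other genes of the same pathways were counted from lists that exclude the 50 members. Of 31 other origin and fork factors, 11 fell and none rose with TAOK2 siRNA in whole cells (16 and 1 with the block), among them TOP1, the topoisomerase that relieves torsion ahead of the fork, at 64.1 ± 14.0 TPM with TAOK2 siRNA and 130.3 ± 33.2 TPM with control siRNA (SD, n = 3 each), and SSRP1, a histone chaperone subunit, at 204.2 ± 2.99 TPM with TAOK2 siRNA and 281.7 ± 1.93 TPM with control siRNA. Of 10 genes of replication-coupled chromatin, 4 fell and none rose with TAOK2 siRNA. With compound 2, 7 of them fell and 1 rose as deposited, and 2 were lower and 4 higher on median-centred values. For compound 2, 51.8% of all genes fell and 12% rose as deposited. On median-centred values 24.3% of all genes were lower and 43.2% higher. The chromatin assembly subunit CHAF1A had -0.39 ± 0.08 with TAOK2 siRNA and -1.49 ± 0.08 with compound 2 (-0.98 median-centred). Of 19 other nucleotide supply genes, 5 fell and none rose with TAOK2 siRNA. With compound 2, 9 of the 19 fell and none rose as deposited, and 2 were lower and 11 higher on median-centred values. UMPS, which completes pyrimidine synthesis, had the largest fall of these, with 5.86 ± 1.35 TPM against 27.7 ± 0.987 TPM with DMSO. In 26 measured genes of G1/S control, of 28 listed, 2 rose and 3 fell with TAOK2 siRNA. These are 7.69% and 11.5%, near the shares of all genes. The E2F partner TFDP1 had -1.07 ± 0.06, cyclin A2 (CCNA2) -0.97 ± 0.09 and E2F8 -0.75 ± 0.13. SKP2, a ubiquitin ligase subunit, had 0.69 ± 0.11. Those 4 had the smallest adjusted p of the list. With compound 2, 20 of those 26 fell and none rose as deposited (6 and 6 median-centred), with E2F5 at -1.81 ± 0.08 and CCND1, cyclin D1, at -1.15 ± 0.07 (-1.30 and -0.65 median-centred).

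Mitotic genes were counted in the same comparisons. Of 20 mitotic genes, 7 fell and none rose with TAOK2 siRNA in whole cells, where 14.4% and 7.78% of all genes did. The median log2 change of the 20 was -0.30. For control siRNA against DMSO, 6 of the 20 fell and none rose, where 2.11% and 4.32% of all genes did. All 20 had negative log2 changes in that comparison too, with a median of -0.24. Cyclin B1 (CCNB1) had 211.2 ± 3.61 TPM with TAOK2 siRNA and 284.2 ± 13.8 TPM with control siRNA (SD, n = 3 each). With compound 2, 18 of 20 fell and none rose as deposited, where 51.8% and 12% of all genes did. On median-centred values 12 were lower and 2 higher, where 24.3% and 43.2% of all genes were. The spindle gene ASPM had 4.88 ± 0.618 TPM with compound 2 and 30.8 ± 3.38 TPM with DMSO. In the fractionation experiment all 20 had positive log2 changes with TAOK2 siRNA in total, nuclear and cytoplasmic RNA, and 0 passed without the block (limma). With the block 13, 13 and 9 were higher, where 1.66%, 2.77% and 1.49% of all genes were. What part the mitotic genes, or the cell cycle, play in the replication genes' values was not tested.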

How the data were processed

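RNA was measured in 24 libraries of A549 cells, 12 per experiment. Per the labels' protocols, siRNA pools were used at 30 nM, RNA had an integrity number above 6, and polyadenylated RNA was read as pairs of 150 bp. The deposited values are TPM per transcript, which the authors made with kallisto against GRCh38.p14, per the submitters' processing notes, with no version stated. Every library sums to 1000000 TPM, so depth is not kept, no counting interval can be given, and the number of libraries limits precision. Because TPM is a share, a broad change in other RNAs shifts every gene.

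Transcripts were matched by identifier to GENCODE 29 (169797 of 188753, holding 97.0% to 98.35% of TPM per library) and summed per gene. Reads shared with pseudogenes or overlapping genes may be split by the authors' quantification. The test was limma 3.58.1 (R 4.3.3, with statmod 1.5.0) on log2(TPM + 1) for genes averaging 1 TPM or more in a table; this scale understates changes of low genes. Group means over the 12 libraries of a table were fitted, with empirical Bayes trend and robust settings and Benjamini-Hochberg adjustment at 0.05; a gene that passes is called. Errors of log2 changes are moderated SE, those of levels SD. Transcript usage was tested on log2 odds with 0.5 TPM added, for transcripts of at least 1 TPM in genes of at least 5 TPM. The procedure was checked on simulated data. The 2 tables were normalized separately and tested separately.

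Libraries were grouped, and paired across groups by batch, by their labels. Deviations from group means correlated over 0.1 in 30 of 30 pairs of a batch in the fractionation experiment (0.531 to 0.837) and in 12 of 18 in whole cells (-0.302 to 0.639). In the fractionation experiment the deviations of a group's libraries mirror each other, so both batches give the same value for each pair of groups. The 30 therefore include every value in both batches and are not independent. The 3 pairs under -0.1 in whole cells were those of control siRNA of batch B (-0.302, -0.262 and -0.175). Whole-cell calls gained with the block in comparisons with control siRNA thus rest on a batch label that these values do not bear out. Compound 2 and DMSO correlated at 0.631, 0.639 and 0.524 in batches A, B and C, though their block fit also holds the control siRNA libraries. Alternatives were a pseudocount of 0.5, no filter, median-centred values, batch as a block, only the groups compared, protein-coding transcripts alone and each library left out.

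The members and gene lists were chosen with earlier results of these data known. Values in every library are given for up to 8 members with the largest falls and 6 with the largest rises that passed with the same sign in all batches, for the smallest adjusted p in each of 6 role groups, for the 4 largest in each direction in the fractionation comparisons, for the 5 largest differences between effects and for the 4 transcripts or other pathway genes per list that led by adjusted p or size. GINS1 to GINS4, PCNA, RRM2, the sums and the genes named in total, nuclear and cytoplasmic RNA under TAOK2 siRNA were named after their values were seen.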

Additional observations from a re-analysis of the deposited data

Results flagged for a closer look

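TAOK2 siRNA and control siRNA were compared in both experiments, and 30 members had TAOK2 siRNA lower in 3 of 3 whole-cell batches and higher in 2 of 2 total RNA batches. The difference between the experiments was not tested, because the tables were normalized separately. Of the members with the largest falls in whole cells, those with the opposite sign in every batch of total RNA were GINS2, with a log2 change of 0.63 in total RNA, CDC6 with 1.07, ORC6 with 0.61, WDHD1 with 0.63, MCM2 with 0.65 and DBF4 with 0.44. The whole-cell call of DBF4 was lost in 8 of 12 other settings. Transcripts annotated as protein-coding held 6.64% and 7.41% of DBF4 TPM in total RNA with control siRNA.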

How the results depend on the processing

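Of 453 values of 37 named results under other settings, 425 kept their direction and side of the threshold, 23 missed it, 2 newly passed and 3 changed sign. The sign changes were RRM1 for compound 2 on median-centred values (0.35) and, with protein-coding transcripts alone, POLE2 (-0.20) and ORC6 (-1.73) for nuclear minus cytoplasmic RNA; the last 2 come from leaving out their noncoding transcripts. With the replicate block, which pairs libraries by labelled batch, the number of members called for TAOK2 siRNA was 6 in total, 10 in nuclear and 9 in cytoplasmic RNA, against 0 without it, 34 against 22 for nuclear minus cytoplasmic RNA and 7 against 4 for control siRNA minus DMSO; beside the calls given in the report it changed no other member's call. In nuclear RNA, 1 member was called for TAOK2 siRNA without a filter and 1 on median-centred values. For control siRNA minus DMSO, 1 was called without a filter, 1 on median-centred values and 2 with only the groups compared. Lowering the floor to 0.2 TPM gave 1 transcript called for TAOK2 siRNA and 75, against 49, for compound 2. The lower floor lets more transcripts into the test. Their number and the share of all transcripts called are not given, so 75 and 49 cannot be compared as shares. With only the groups compared, 31 members, against 21, were called for TAOK2 siRNA in whole cells, with no share of all genes given beside it. Leaving out each library in turn gave 13 to 20 members called for TAOK2 siRNA, 30 to 36 for compound 2, 0 to 5 for control siRNA minus DMSO, 23 to 28 for the difference of effects, 12 to 15 for nuclear minus cytoplasmic RNA, and 37 to 47 transcripts for compound 2. With the block, an alternative chosen after seeing the data, it gave 0 to 7 for TAOK2 siRNA in total, 0 to 1 in nuclear and 0 to 10 in cytoplasmic RNA; the cause was not tested. With 2 libraries per fractionation group, a lone library was assumed to vary like the other groups. Depth is unknown, and members under about 1 TPM in a group, such as CDT1 and UHRF1 in the fractionation experiment, rest on few reads' worth of signal.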
